A study of Mus musculus with 6 samples.

Results

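The comparison described here sets the 2 libraries of a Mettl3 knockout, labelled KO1, against the 2 libraries of the control in mouse embryonic stem cells of the C57BL/6 strain. These are 4 of the 6 libraries in the series, and the other 2 come from another Mettl3 knockout, labelled KO2. All 6 were grown under the same conditions, in serum-containing DMEM with the cytokine LIF, the GSK3 inhibitor CHIR99021 and the MEK inhibitor PD0325901. The sources used here do not give how the knockouts were made, what the control cells carry, whether KO1 is a single clone, or the windows and strand over which the index was counted. Libraries were taken by their labels, and each gene is represented by its protein-coding transcript with the longest genomic span, which gave 12974 genes out of 33978 coding transcripts. The quantity is the deposited escaping index of mNET-seq, a method that reads the nascent RNA protected by RNA polymerase II (Pol II) after nuclease digestion of chromatin.

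N6-methyladenosine (m6A) is placed on transcripts while they are being made, by a complex whose methyltransferase subunit is Mettl3. At most mammalian genes Pol II stops shortly after initiation, where NELF and DSIF hold it, and is released into the gene body when the kinase P-TEFb phosphorylates these factors. An index that compares polymerase in the gene body with polymerase near the start therefore follows how much of the engaged polymerase is found beyond the start. The deposited index is log2 of a ratio within a transcript. A lower value can come from less signal in the body or more at the start, which the ratio cannot tell apart. It holds no information on how much RNA a gene makes. Fewer cells of a type and less RNA per cell cannot be told apart in it either.

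Of 12 embryonic stem cell markers, 12 had an index, among them Pou5f1, Sox2, Nanog and Esrrb. An index was present for 6 of 9 markers of feeder fibroblasts, for 3 of 6 of trophoblast and for 0 of 4 of primitive endoderm. Since the index is a ratio, it shows that these transcripts had signal and not how much. Replicates correlated across genes at r = 0.969 in control and r = 0.975 in KO1, where genes are not independent replicates. The read depth of the libraries is unknown. No label says that the replicates came from separate cultures, and the p-values then reflect only the spread among these libraries, which may be technical.

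The whole distribution of the index lay lower in KO1. The median over genes was 4.79 and 4.80 in the control libraries and 4.41 and 4.42 in the KO1 libraries, so that both KO1 libraries lay below both controls. The group means were 4.79 ± 0.0114 (SD, n = 2) and 4.42 ± 0.0084 (SD, n = 2), a difference of -0.38. An exact permutation test over the 6 splits of 2 against 2 libraries gave a two-sided p of 0.333, the smallest that this design allows. As a linear ratio the median went from 27.6 and 27.9 in control to 21.3 and 21.4 in KO1, which is 23.0% lower. The 10th percentile of genes moved by -0.36 and the 90th by -0.38, and the spread over genes was 2.26 in control and 2.25 in KO1. The width of the distribution was thus the same. Genes with a ratio below 1 made up 2.79% ± 0.0818 (SD, n = 2) in control and 3.84% ± 0.0491 (SD, n = 2) in KO1.

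By gene, 9985 of 12974 (77.0%) had a lower mean index in KO1. The median change was -0.37, with the middle 50% of genes between -0.71 and -0.03. Both KO1 libraries lay below both controls for 6911 genes (53.3%) and above both for 1110 (8.56%). In limma with Benjamini-Hochberg adjustment over all genes, 813 genes had an adjusted p under 0.05. Of these, 778 (6.00% of genes tested) were lower in KO1 and 35 (0.270%) were higher. The called falls ran from -0.78 to -2.61, with a median of -1.23, and the called rises from 0.88 to 2.76, with a median of 1.31. Adjusted p-values of the called genes lay between 0.0376 and 0.0500, all close to the threshold. Leaving out each of the 6 libraries in turn gave 0 calls in each fit, with smallest adjusted p-values in limma from 0.0857 (without control replicate 1) to 0.148 (without KO1 replicate 1). At an unadjusted p under 0.05 these fits still gave 2629 to 3426 lower and 284 to 324 higher genes, against 3860 and 307 with all libraries. The calls therefore rest on all 6 libraries together, while the direction does not depend on 1 of them.

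Centring each library on its own median added 0.38 to the change of each gene. On that scale limma called 0 genes, with a smallest adjusted p of 0.101, and at an unadjusted p under 0.05 it gave 1335 lower and 1343 higher genes. The share of lower genes at that level was 92.6% as deposited and 49.9% after centring. After the common shift was taken off, falls and rises were thus about equally many. The smallest called fall, -0.78, was larger than the shift, so the 778 called falls and 35 called rises keep their direction on the centred scale by construction. No gene named here passed the adjusted threshold on that scale.

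The targeted gene, Mettl3 (chromosome 14, 52294841 to 52305128 in mm10), stood at 2.69 and 2.46 in control and at 2.44 and 2.42 in KO1. The change was -0.14 ± 0.18 (SE), with a limma adjusted p of 0.618, and it was 0.23 after centring. Since the index compares regions of 1 gene, it is no check that the gene was disrupted. Mettl3 also overlaps another annotated gene, whose reads may enter its value.

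The 15 called falls with the smallest p are given by role, beginning with growth factors and the enzymes that process them. The rule that chose them required both KO1 libraries below both controls. Furin, the protease that cleaves proproteins in the secretory pathway (chromosome 7, 80389194 to 80402762), had an index of 3.54 and 3.83 in control and 1.39 and 1.53 in KO1. The change was -2.22 ± 0.20 (SE). Igf2, the imprinted insulin-like growth factor (chromosome 7, 142650769 to 142659489), had 0.81 and 0.54 in control and -1.59 and -1.86 in KO1, so that its ratio crossed from above 1 to below 1. Its change was -2.40 ± 0.22 (SE). Ndnf, a secreted neurotrophic factor, went from 1.42 and 1.03 to -1.05 and -1.12, and its ratio also crossed 1 (-2.31 ± 0.22, SE). Cpm, a membrane carboxypeptidase that trims peptide hormones, fell by 1.91 on the log2 scale, from 3.74 and 3.88 to 2.05 and 1.75. In limma the adjusted p was 0.038 for each of these 4 genes.

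Others act in signalling, membrane traffic and at the cell surface. Dgkz, the diacylglycerol kinase that ends diacylglycerol signals, had 3.29 and 3.62 in control and 0.99 and 1.25 in KO1 (-2.34 ± 0.20, SE). Rph3al, a Rab effector of regulated exocytosis, went from 4.23 ± 0.028 in control to 1.84 ± 0.361 in KO1 (SD, n = 2 each), a change of -2.38. Uxs1, which makes the UDP-xylose that starts proteoglycan chains, went from 6.54 and 6.94 to 4.82 and 4.76. Both KO1 libraries of each gene lay well below both controls. Cemip2, a cell-surface hyaluronidase, fell by 1.77 on the log2 scale, Fam171a2 by 1.92 and the membrane protein gene Tmem132b by 1.98. The limma adjusted p was 0.038 for each of these 6 genes.

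The remaining named falls were spread over other functions. Qrich2, a protein of the sperm flagellum (chromosome 11, 116441329 to 116466241), had the smallest p of all genes. Its index was 4.36 and 4.53 in control and 1.98 and 2.04 in KO1, a change of -2.43 ± 0.17 (SE, limma adjusted p = 0.038). Inca1, an inhibitor of cyclin-dependent kinase, had 4.48 and 4.27 in control and 2.30 and 2.32 in KO1. Churc1, a zinc-binding protein of neural induction, had 4.47 and 4.77 in control and 2.59 and 2.62 in KO1. The acetyltransferase gene Nat9 fell by 1.79 and the THAP-domain repressor gene Thap7 by 1.73 on the log2 scale. Spans of these 15 genes ran from 3.15 kb for Thap7 to 260.2 kb for Tmem132b, so that short and long genes were both among them. Dgkz, Furin, Igf2, Churc1, Rph3al, Nat9, Cpm, Cemip2, Fam171a2 and Uxs1 overlap another annotated gene, and reads of that gene may enter their values.

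Rises were few, and the largest called one was in Klhl35, an adaptor of the KLHL family that brings substrates to Cullin-3 ubiquitin ligases (chromosome 7, 99466004 to 99474022). Its index was 0.48 and 0.53 in control and 2.90 and 3.63 in KO1, a change of 2.76 ± 0.36 (SE, limma adjusted p = 0.038). Its X-linked relative Klhl13 (chromosome X, 23219271 to 23365082) had 7.54 and 7.48 in control and 9.27 and 9.52 in KO1. The change of Klhl13 was 1.89 ± 0.21 (SE). Mtg2, a GTPase of the mitochondrial ribosome, rose by 1.55, to 4.52 and 4.12 in the KO1 libraries from a control mean of 2.77. Both KO1 libraries of the 3 genes lay above both controls, as the rule for the named rises required. Scml2, a germline relative of Polycomb proteins, had 3.14 and 3.23 in control and 4.43 and 4.41 in KO1. L1td1, an RNA-binding protein of pluripotent cells that descends from a LINE-1 element, had 6.60 and 6.59 in control and 7.73 and 7.96 in KO1.

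The other named rises were in genes of several kinds. Cckar, the cholecystokinin A receptor, had -1.15 and -1.35 in control and 1.39 and 0.59 in KO1, so that its ratio moved from below to above 1 (2.24 ± 0.36, SE). Fcgr3, a low-affinity receptor for immunoglobulin G, rose by 1.55 and Trh, the precursor of thyrotropin-releasing hormone, by 1.14. Plec, the cytolinker plectin, had 4.17 and 4.57 in control and 6.17 and 6.89 in KO1. Loxl2, which crosslinks collagen, rose by 1.53, the endoplasmic reticulum selenoprotein gene Selenof by 1.31 and the alpha-tubulin gene Tuba1a by 1.09. The zinc finger genes Zfp951 and Zfp273 rose by 1.19 and 0.99, and Tsga10ip by 1.35. The limma adjusted p of these rises lay between 0.038 and 0.042. Klhl13, Selenof, Fcgr3, Tuba1a, Plec, Loxl2 and Zfp273 overlap another annotated gene.

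**Figure D1:**
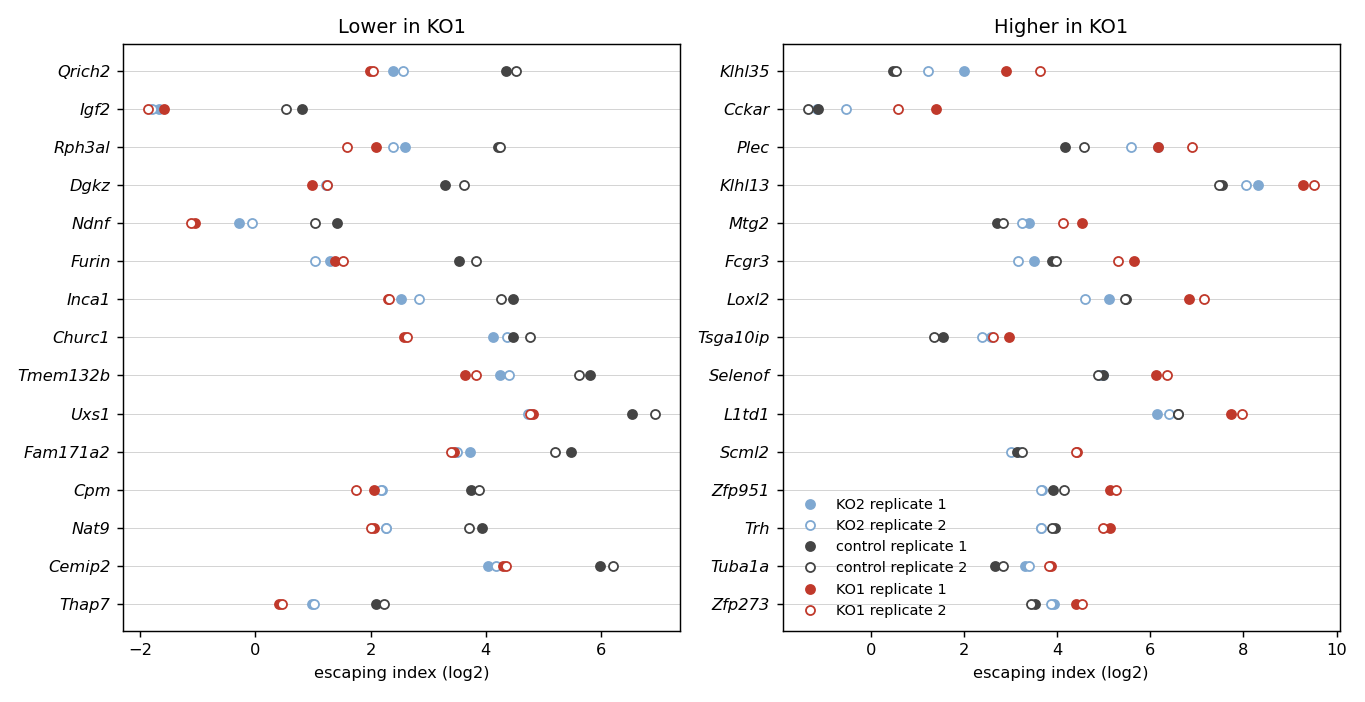
Escaping index (log2, horizontal axis) of the 15 named falls and 15 named rises, 1 row per gene, with 1 point per library of control, KO1 and KO2. In each row both KO1 points lie beyond both control points, as the choice of genes required. They lie to the left for the lower genes and to the right for the higher ones. The mean of the KO2 points lies below the control mean for 15 of the 15 lower genes and for 6 of the 15 higher genes. The genes were chosen against these same controls, and the median KO2 change over all genes was -0.58, so these counts are no independent sign.

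For the first pair of named genes in each direction whose RefSeq start lies at the transcript's start, the 150 bases before it are printed. They are examples and do not describe the other genes that moved. Sequences are from RefSeq, GRCm38.p6, 5′ to 3′ on the gene's strand, with the GC box GGGCGG, or CCGCCC on the other strand, in capitals. The genes are Inca1 and Churc1, which fell, and Klhl13 and Klhl35, which rose.
Inca1 promoter, chr11:70700156-70700305, minus strand: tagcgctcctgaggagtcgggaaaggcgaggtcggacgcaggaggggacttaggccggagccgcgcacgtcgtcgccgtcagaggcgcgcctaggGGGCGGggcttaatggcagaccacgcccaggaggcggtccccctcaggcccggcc
Churc1 promoter, chr12:76765388-76765537, plus strand: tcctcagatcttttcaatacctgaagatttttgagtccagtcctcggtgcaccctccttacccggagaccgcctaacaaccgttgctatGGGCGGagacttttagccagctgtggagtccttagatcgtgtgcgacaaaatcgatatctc
Klhl13 promoter, chrX:23365083-23365232, minus strand: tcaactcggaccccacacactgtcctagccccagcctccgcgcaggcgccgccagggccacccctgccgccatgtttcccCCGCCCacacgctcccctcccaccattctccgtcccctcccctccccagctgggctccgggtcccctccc
Klhl35 promoter, chr7:99465854-99466003, plus strand: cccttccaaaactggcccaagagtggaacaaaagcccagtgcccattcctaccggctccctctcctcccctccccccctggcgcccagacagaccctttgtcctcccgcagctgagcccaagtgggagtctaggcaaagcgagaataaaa
The windows of Inca1, Churc1 and Klhl13 each held 1 GC box, the site bound by Sp1-type factors, and that of Klhl35 held 0. The TATA motif TATAAA was found in 0 of the 4 on either strand. CG dinucleotides numbered 18 in Inca1, 8 in Churc1, 10 in Klhl13 and 4 in Klhl35. Of the 7367 genes with a RefSeq start within 50 bases of the transcript's, 57.9% held a GC box and 2.77% the TATA motif in a window of this length, and the median number of CG dinucleotides was 11. A match is a description of letters and not of a bound site.

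Across genes, the change went with the base composition of the transcript's start. Genes were split into 5 equal classes by the GC content of the first 50 bases of their transcript, which all 12974 genes had. From the class of lowest to that of highest GC, the median change was -0.19, -0.29, -0.36, -0.45 and -0.54. The classes were centred on GC contents of 52%, 60%, 66%, 72% and 80%. Each step to higher GC thus went with a larger fall. Called falls numbered 66, 101, 155, 171 and 285, or 2.54% of genes in the lowest class and 10.98% in the highest, beside 6.00% of all genes. Called rises numbered 12, 11, 6, 5 and 1. Both KO1 libraries lay below both controls for 39.0% of genes in the lowest class and for 64.3% in the highest.

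The control libraries held a gradient in the index itself, which was smaller in KO1. The median index of the highest GC class exceeded that of the lowest by 1.51 ± 0.012 (SD, n = 2) in control and by 1.13 ± 0.031 (SD, n = 2) in KO1. The difference between the groups was -0.38, with an exact permutation p of 0.333 over 6 splits, the smallest possible. The same quantity was 1.09 and 1.09 in the KO2 libraries. Both knockouts were thus below both controls, and KO2 shares these controls. Highest-GC genes were also longer, with a median span of 34.8 kb against 16.7 kb in the lowest class. Within genes under 10 kb the median change was -0.18 in the lowest and -0.63 in the highest GC class, within 10 to 50 kb -0.21 and -0.56, and at 50 kb or more -0.17 and -0.50. The difference between the classes was therefore present at each length. Across genes, Pearson's r between the GC of the first 50 bases and the change was -0.24. The genes share the same 4 libraries, and the part of base composition in the measurement was not tested.

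GC content of the whole spliced transcript did not give such a gradient. Its 5 classes, from low to high, had median changes of -0.39, -0.38, -0.34, -0.33 and -0.42, and r with the change was -0.01. The named genes followed the start. Of the 15 named falls, 7 were in the highest class by GC of the first 50 bases and 1 in the lowest, among them Furin with 88% GC, Igf2 with 84% and Uxs1 and Tmem132b with 82%. Of the 15 named rises, 1 was in the highest class and 6 in the lowest, among them Zfp951 with 38% GC, Cckar with 40% and Zfp273 with 48%. These 30 genes were chosen by their change, so their composition is a description.

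**Figure D2:**
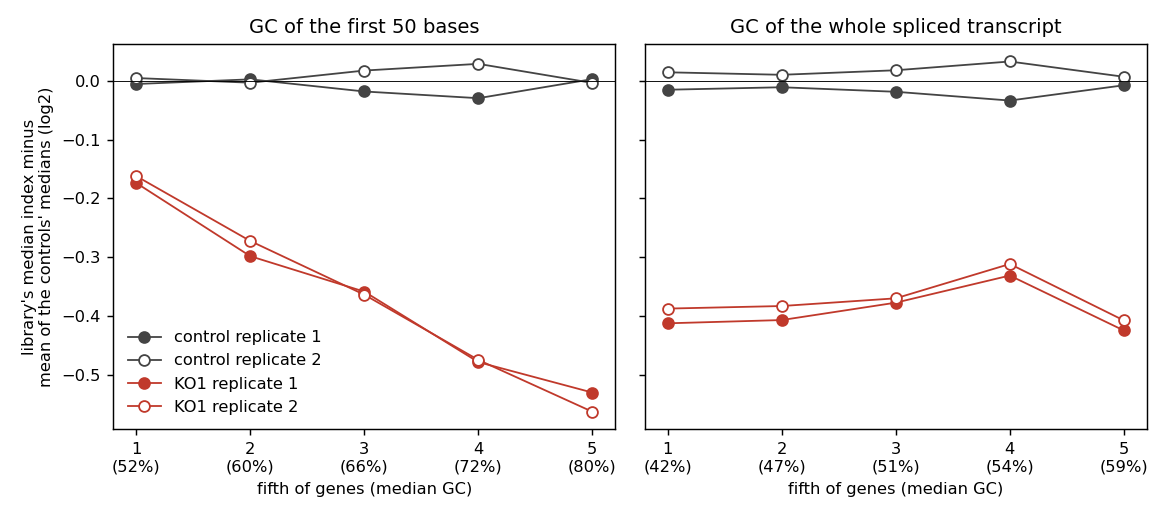
Median index of each library in 5 equal classes of genes by GC content, minus the mean of the controls' medians in that class (log2, vertical axis), for the GC of the first 50 bases (left) and of the whole spliced transcript (right). The KO1 lines descend from the lowest to the highest class on the left and stay within a narrow band on the right.

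The change was nearly the same in short and long genes. The index itself rises steeply with length, by 2.77 ± 0.0110 (SD, n = 2) per 10-fold greater span in control and by 2.75 ± 0.0073 (SD, n = 2) in KO1. In genes under 5 kb the median index was 1.69 and 1.67 in control and 1.32 and 1.35 in KO1. In genes of 200 kb or more it was 7.20 and 7.26 in control and 6.86 and 6.89 in KO1. Short and long genes thus moved down alike. In the 7 length classes the median change was -0.34 under 5 kb, between -0.35 and -0.39 in the 5 classes from 5 to 200 kb, and -0.30 at 200 kb or more. The median of genes of 100 kb or more (1588 genes) minus that of genes under 5 kb (1667 genes) was 5.21 and 5.27 in control and 5.24 and 5.23 in KO1. These values overlapped, with a difference of -0.004 and an exact permutation p of 1. Called falls made up 4.74% of genes under 5 kb, 6.89% from 50 to 100 kb and 3.99% at 200 kb or more.

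**Figure D3:**
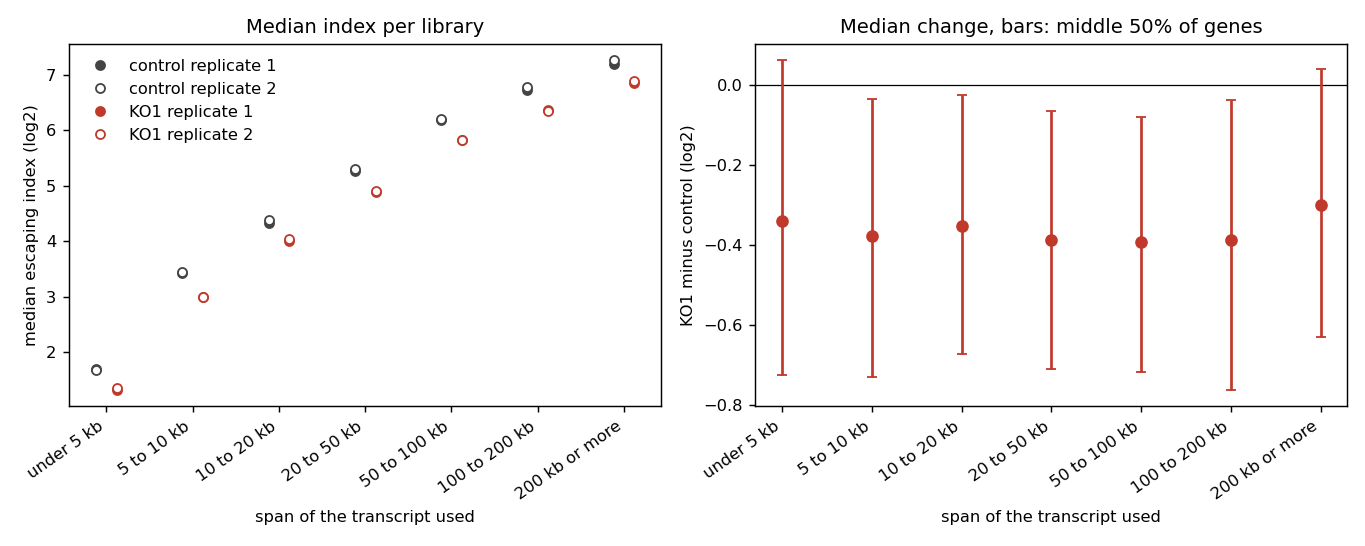
Left, median escaping index (log2) of each control and KO1 library in 7 classes of genomic span. Right, median change from control to KO1 per class, with bars over the middle 50% of genes. The 2 KO1 libraries lie below the 2 controls in each class by a similar distance, while the index itself climbs by over 5 log2 units.

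Exon number, chromosome and starting level showed small differences. The median change ran from -0.32 in single-exon genes to -0.40 in genes with 7 to 10 exons. By chromosome it ran from -0.42 on chromosome 12 to -0.27 on the X chromosome. On the X, 293 of 425 genes (68.9%) had a lower mean, and 41.2% had both KO1 libraries below both controls, beside 53.3% of all genes. The X held 14 called falls (3.29% of its genes, beside 6.00%) and 2 called rises, which were Klhl13 and Scml2. The difference between chromosomes was not tested. When genes were ranked by 1 control library and the change was taken against the other, the median change went from -0.34 in the lowest of 5 classes to -0.41 in the highest, and from -0.31 to -0.38 with the controls exchanged.

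Within a gene, the change depended on where the transcript starts. Coding transcripts other than the longest whose start lay within 0.5 kb of it had a median change of -0.33, beside -0.38 for the longest transcript of the same 6492 genes. Coding transcripts that start over 5 kb further downstream had a median change of 0.01, beside -0.38 for the longest transcript of the same 2599 genes. In 71.3% of these genes the internal transcripts changed upward relative to the longest. The index of the internal coding transcripts was 2.87 and 2.89 in control and 2.86 and 2.88 in KO1, while that of the longest ones was 6.13 and 6.11 in control and 5.74 and 5.77 in KO1. The internal transcripts were therefore level between the groups within the spread of replicates. An internal transcript lies within the longest one, so its values share reads with it.

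The same division held in the 3 noncoding classes of coding genes. Retained-intron transcripts, which keep an intron and are seldom translated, had a median change of -0.33 where they start with the gene (4016 genes). Where they start over 5 kb inside it (3476 genes) the median change was 0.04, beside -0.39 for the longest transcript of the same genes. Transcripts subject to nonsense-mediated decay, which carry a premature stop, had -0.32 at the gene's start (2328 genes) and 0.09 inside it (855 genes). Processed transcripts without an open reading frame had -0.33 (2551 genes) and 0.03 (2309 genes). The classes were thus alike once the start was taken into account. Over all distinct transcripts regardless of start, the median change was -0.28 for coding, -0.21 for decay-subject, -0.14 for processed and -0.12 for retained-intron transcripts.

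Among transcripts outside coding genes the change differed by class and length. Long intergenic noncoding RNAs (1270 transcripts) had a median index of 2.53 and 2.59 in control and 2.41 and 2.44 in KO1, with a median change of -0.16. By span their median change was -0.17 under 5 kb, -0.10 from 5 to 20 kb and -0.30 at 20 kb or more. Coding transcripts of those spans had median changes of -0.21, -0.27 and -0.30. Antisense and bidirectional noncoding RNAs (1181 transcripts) had 2.17 and 2.12 in control and 1.91 and 1.93 in KO1, with a median change of -0.24. Theirs was -0.29 under 5 kb, lower than that of coding transcripts, and -0.16 at 20 kb or more, which is higher. Without stated strand in the counting, an antisense RNA cannot be told apart from its partner gene. Pseudogenes (1015 transcripts) had 0.59 and 0.55 in control and 0.59 and 0.59 in KO1, with a median change of 0.04, and their groups were not separated. Pseudogenes can share reads with their parent genes.

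**Figure D4:**
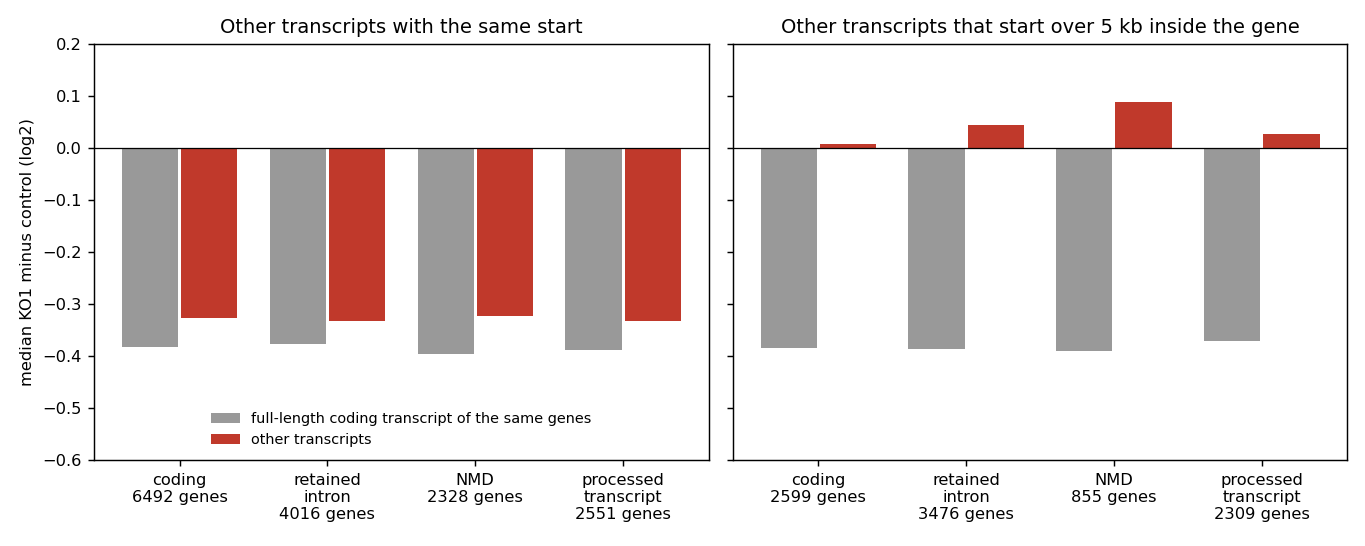
Median change in log2 escaping index from control to KO1 for transcripts of 4 classes that start within 0.5 kb of the gene's longest coding transcript (left) or over 5 kb inside it (right), red, beside the longest coding transcript of the same genes, grey. Red bars reach -0.32 to -0.33 on the left and 0.01 to 0.09 on the right, while grey bars lie between -0.37 and -0.40 on both sides.

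Single genes with several transcripts show how far the values depend on the start. The longest Furin transcript fell, while the other coding Furin transcript, which starts 1.06 kb downstream, had 2.07 and 2.34 in control and 2.67 and 3.05 in KO1, a change of 0.66 in the other direction. The longest Klhl13 transcript rose by 1.89, and the 3 others, which start 49.9, 79.5 and 80.3 kb downstream, had changes of 0.54, -0.38 and 0.04. For Selenof, transcripts starting 0.27 and 7.23 kb downstream had changes of -0.01 and -0.76, beside the rise of 1.31. In contrast, the other transcripts of Uxs1, Thap7 and Churc1, which all start within 0.1 kb of the longest, had changes of -1.87 to -2.02, -1.65 to -1.81 and -1.94 to -2.00. A near start did not always give a like change. The other Zfp273 transcript, which starts 0.076 kb downstream, had a change of -0.39 beside the rise of 0.99, and the other Loxl2 transcript, 0.41 kb downstream, had -0.26 beside 1.53. The 15 other Plec transcripts ran from -1.25 to 0.91. The other Zfp951 transcript, 31.1 kb downstream, had -0.18 beside 1.19, and a Scml2 transcript 0.29 kb downstream had -0.41 beside 1.23. Another Scml2 transcript, which starts 0.022 kb upstream, rose by 0.79. Some other transcripts of named falls fell by less than the longest. The Qrich2 transcript that starts 11.9 kb downstream had 3.01 and 3.02 in control and 3.02 and 1.88 in KO1, with overlapping groups. Other transcripts had -0.97 beside -2.34 for Dgkz, -0.84 beside -1.98 for Tmem132b, and -0.93 and -0.94 beside -1.79 for Nat9. For Inca1 the other transcript had -1.81 beside -2.07. The rises of Klhl13, Selenof, Zfp273, Loxl2, Plec, Zfp951 and Scml2 were therefore not shared by all measured coding transcripts of the gene. Nor were the falls of Furin and Qrich2.

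Among genes of m6A biology, 0 of 20 were called, beside 6.00% lower and 0.270% higher over all genes. The 9 writers and partners had a median change of -0.27 as deposited and 0.10 after centring, and 7 of them had a lower mean. Rbm15, which directs the writer complex to RNA, had 6.16 and 6.76 in control and 5.54 and 5.82 in KO1 (-0.78 ± 0.28, SE, limma adjusted p = 0.125). Zc3h13, a scaffold of the same complex, lay the other way, with 6.43 and 6.89 in control and 7.24 and 7.33 in KO1 (0.62 ± 0.24, SE, limma adjusted p = 0.141). The 11 readers and erasers had a median change of -0.25, and 0.13 after centring. The reader Ythdf3 had 6.36 and 6.37 in control and 5.59 and 5.64 in KO1 (-0.75 ± 0.16, SE, limma adjusted p = 0.050, just above the threshold). The eraser Alkbh5 had 4.22 and 4.04 in control and 3.29 and 3.47 in KO1 (limma adjusted p = 0.062).

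Genes of the transcription machinery lay near the median of all genes. Of 14 genes of NELF, DSIF and P-TEFb, the factors that set and lift the pause, 13 had a lower mean, with a median of -0.35, and 1 was called (7.14%, beside 6.00% of all genes). Nelfb, a core NELF subunit, fell from 3.47 and 3.43 to 2.52 and 2.38 (SE of the change 0.17, limma adjusted p = 0.042). Of 31 general transcription factor genes 3 were called (9.68%, beside 6.00%), all lower: Taf6 (-1.20) and Taf13 (-0.96) of TFIID and Gtf2a2 (-0.98) of TFIIA. Of 33 Mediator genes 2 were called (6.06%), Ccnc (-0.96), the cyclin of its kinase module, and Med6 (-0.93), with a median of -0.21 over the list and 0.16 after centring. Of the 13 Pol II subunits 0 were called, and their median was -0.43. Polr2a, the largest subunit, had 1.74 and 1.74 in control and 0.89 and 0.96 in KO1, with a limma adjusted p of 0.050, just above the threshold. The 22 elongation factors had a median of -0.18, and 0.20 after centring, with 1 called (4.55%), Ell3 (-1.27), a component of super elongation complexes. These shares lie near that of all genes.

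Genes that process and destroy nascent RNA gave a similar picture. Ints1, the scaffold of Integrator, which cleaves RNA at paused polymerase, had 5.38 and 5.34 in control and 3.91 and 3.76 in KO1 (-1.52 ± 0.20, SE, limma adjusted p = 0.038). It was the called member among 14 Integrator genes (7.14%, beside 6.00% of all genes), whose median was -0.41. Cpsf7 (-1.03) and Nudt21 (-0.99), both subunits of the cleavage factor CFIm, were the 2 called of 19 cleavage and polyadenylation genes, with a median of -0.42 and -0.04 after centring. Exosc8 (-1.15) was the 1 called of 20 genes of the nuclear exosome and its adaptors (5%), and 19 of the 20 had a lower mean, with a median of -0.27. Lsm4 (-1.41) was the 1 called of 61 spliceosome and SR protein genes (1.64%), and the helicase Ddx11 (-1.23) the 1 called of 51 DDX and DHX helicases (1.96%). Nelfb, Taf6, Ccnc, Med6, Ell3, Ints1, Cpsf7 and Exosc8 overlap another annotated gene.

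Chromatin repressors lay below the genome-wide median by their median change per gene. Of 29 Polycomb genes, which silence developmental genes through H3K27 methylation and H2A ubiquitination, 28 had a lower mean. Both KO1 libraries lay below both controls for 24 of them (82.8%, beside 53.3% of all genes). The median was -0.61, and -0.23 after centring. Phc2, a PRC1 subunit, was the called member (3.45% of the list, beside 6.00% of all genes), with 6.17 and 5.77 in control and 4.04 and 4.05 in KO1 (-1.92 ± 0.21, SE, limma adjusted p = 0.038). The PRC2 methyltransferase Ezh2 had 5.29 and 5.19 in control and 4.57 and 4.70 in KO1 (-0.60), and Cbx2 had 4.61 and 4.39 in control and 2.77 and 3.27 in KO1 (limma adjusted p = 0.057). Of 18 genes of H3K9 methylation and KAP1 silencing, which hold down transposons, 16 had a lower mean, with a median of -0.65 and -0.27 after centring. The median index of the H3K9 list was 5.49 and 5.32 in control and 5.00 and 5.03 in KO1. By these library medians the difference was -0.39, beside -0.74 for the Polycomb list and -0.38 for all genes. Setdb1, the methyltransferase recruited by KAP1, fell from 7.08 and 6.99 to 5.89 and 6.05 (-1.06 ± 0.18, SE, limma adjusted p = 0.042).

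Of 23 chromatin remodelling genes, 4 were called (17.4%, beside 6.00%): Smarca4 (-1.15), the ATPase of BAF complexes, its partner Smarcd1 (-1.14), and the helicases Chd9 (-1.08) and Chd2 (-0.79). Their list had a median of -0.43, and -0.05 after centring. Paxip1 (-1.03) was the called member of 16 MLL and SETD1 genes, which write H3K4 methylation, with a median of -0.39. Of 13 DNA methyltransferase, TET and methyl-CpG-binding genes 0 were called, with a median of -0.38. Smarca4, Smarcd1, Chd9, Chd2, Ezh2 and Setdb1 overlap another annotated gene. The median GC of the first 50 bases was 68% in the Polycomb list and in the H3K9 list, and the mean of the GC class medians for their members was -0.39 and -0.41, less negative than the list medians of -0.61 and -0.65.

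The pluripotency network lay above the genome-wide median by its median change per gene, but not by the medians of its libraries. The 27 measured genes had a median change of -0.04, and 0.33 after centring, and 17 had a lower mean. The median index of the list was 4.27 and 4.40 in control and 3.85 and 3.89 in KO1. That difference was -0.47, beside -0.38 for the median over all genes. Called were 2 of them (7.41%, beside 6.00% of all genes). Pou5f1 (Oct4) had 2.78 and 2.90 in control and 2.80 and 2.87 in KO1, and Esrrb had 3.81 and 3.63 in control and 3.72 and 3.81 in KO1. The groups overlapped for both genes. Sox2 had -1.35 and -1.43 in control and -1.18 and -1.27 in KO1 (0.17 ± 0.20, SE), and Nanog had 4.85 and 4.53 in control and 4.45 and 4.31 in KO1 (-0.31 ± 0.19, SE). Neither passed the test. The naive factor Klf4 fell from 4.79 and 4.65 to 3.81 and 3.89 (-0.87 ± 0.16, SE) and Trim71, a let-7 target that regulates mRNA in stem cells, by 1.01 on the log2 scale, both with a limma adjusted p of 0.046. Pou5f1, Sox2 and Trim71 overlap another annotated gene.

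Lineage genes were measured in part. Of 22 primed and early lineage genes 9 had an index and 0 were called, with a median of -0.24. Of 15 genes of the 2-cell-like state 0 had an index. Of 16 fibroblast genes 7 had an index and 2 were called (28.6%, beside 6.00% of all genes). Thy1 fell from 3.10 and 3.45 to 2.36 and 2.26. Twist1 had 2.00 and 2.59 in control and 0.00 and -0.32 in KO1, where 0.00 is the commonest value of that library, so its change of -2.45 rests on sparse signal. Col1a1, which marks fibroblasts by its abundance, had 3.97 and 4.73 in control and 4.40 and 5.56 in KO1, with overlapping groups. Of 10 measured Hox genes, which pattern the body axis, 0 were called, with a median of -0.67 and -0.29 after centring. Irx1 (-1.73) was the called member of 21 transcription factors of lineages silent in stem cells, with a median of -0.42.

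In the FGF and ERK cascade, 2 of 33 measured members fell (6.06%, beside 6.00% of all genes). This is the pathway that the MEK inhibitor in the medium blocks, in control and KO1 alike. In all, 27 had a lower mean, with a median change per gene of -0.53 and -0.16 after centring. The median index of the list was 5.28 and 5.09 in control and 5.06 and 5.18 in KO1, with overlapping groups. That difference was -0.06, beside -0.38 for the median over all genes. The receptor Fgfr1 fell from 4.94 and 5.09 to 4.08 and 4.24 (limma adjusted p = 0.047). Egr1, an immediate early gene downstream of ERK, lay the other way, with 3.57 and 4.29 in control and 5.06 and 5.73 in KO1 (1.47 ± 0.37, SE, limma adjusted p = 0.068). Of 31 Wnt genes 26 had a lower mean, with a median of -0.46. The receptor Fzd2 was called, with 2.53 and 3.25 in control and 0.98 and 1.44 in KO1 (-1.68 ± 0.31, SE, limma adjusted p = 0.046). Fgfr1 overlaps another annotated gene.

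The p53 list and the immediate early genes each had 3 called members (12.5%, beside 6.00% of all genes). Of 24 genes of p53 and its targets 20 had a lower mean, with a median of -0.60 and -0.23 after centring. The p53 antagonists Mdm4 (9.93 and 10.09 in control, 8.85 and 8.87 in KO1) and Mdm2 (7.31 and 7.29 in control, 6.52 and 6.15 in KO1) fell, as did the target Trp53inp1 (-0.88). Trp53 itself had 2.80 and 2.95 in control and 2.68 and 2.52 in KO1 and did not pass the test (limma adjusted p = 0.327). Among 24 immediate early genes, which answer stimuli within minutes, Nr4a2 (-1.52), Fosb (-1.16) and Fos (-1.10) fell. Fos had -0.91 and -1.07 in control and -2.14 and -2.06 in KO1, a ratio below 1 in all 4 libraries. The list median was -0.33, and 0.04 after centring. Mdm4 overlaps another annotated gene.

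Genes of mitosis and of the primary cilium had low median changes per gene. Of 21 mitotic kinases and cyclins 20 had a lower mean, with a median of -0.65 and -0.27 after centring, and both KO1 libraries lay below both controls for 18 (85.7%, beside 53.3%). Aurkb, the kinase of the chromosomal passenger complex, fell from 4.57 and 4.49 to 3.24 and 3.05 (-1.38 ± 0.17, SE). Plk4, the kinase that starts centriole duplication, fell from 5.23 and 5.23 to 3.92 and 4.17 (-1.18 ± 0.17, SE). The limma adjusted p was 0.038 for both, and these 2 calls are 9.52% of the list, beside 6.00% of all genes. Aurka did not differ in the same way, with 3.63 and 3.48 in control and 3.52 and 3.59 in KO1.

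The ciliary transition zone is a gate of protein complexes at the base of the cilium. Its median change per gene was the lowest of the lists with 7 or more measured genes, -0.91 as deposited and -0.53 after centring. The median index of the list was 4.42 and 5.21 in control and 4.40 and 4.30 in KO1. That difference was -0.46, with a control SD of 0.56 (n = 2). It was not the lowest by this measure, beside -0.80 for the p53 list and -0.74 for the Polycomb list. Of 17 genes 16 had a lower mean and 5 were called (29.4%, beside 6.00%). The tectonic genes Tctn1 (6.80 and 6.51 in control, 4.82 and 5.24 in KO1) and Tctn3 (6.55 and 6.68 in control, 5.39 and 5.44 in KO1) fell. So did Mks1 (-1.45) and Tmem216 (-1.25). The limma adjusted p of these 4 genes lay between 0.038 and 0.043. Values of some other members were uneven between replicates, such as Tmem67, with 4.02 and 5.84 in control and 4.40 and 4.25 in KO1. The list was chosen knowing that Tctn3 was low in KO2, which shares these controls, so its low median is no independent sign. Its median GC of the first 50 bases was 62%, below that of the Polycomb list. Tctn1, Tmem216 and Tmem67 overlap another annotated gene.

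Replication-dependent histone genes, which lack introns and polyadenylation, were the list whose median change per gene was above 0 as deposited. By the medians of libraries, other lists were also higher in KO1. The differences were 0.09 for elongation factors, 0.23 for the DNA methyltransferase list and 0.28 for primed and early lineage genes, beside 0.14 for histones. The median index of the 35 measured histone genes, with 66 listed, was 0.23 and 0.10 in the control libraries and 0.27 and 0.34 in the KO1 libraries. Of them 27 had a higher mean, and both KO1 libraries lay above both controls for 13 (37.1%, beside 8.56% of all genes). The median change was 0.11 as deposited and 0.49 after centring, and 0 were called by limma, with 1 lower and 2 higher at an unadjusted p under 0.05. Hist1h4c had -0.28 and -0.38 in control and 0.24 and 0.39 in KO1 (0.65 ± 0.19, SE, limma adjusted p = 0.090), and Hist1h4d had -1.20 and -1.17 in control and -0.57 and -0.53 in KO1 (0.64 ± 0.20, SE, limma adjusted p = 0.097). Histone copies are near-identical and can share reads, so single members are uncertain. Their median span was 0.836 kb, and all genes with the same lengths had a median change of -0.34. Their median GC of the first 50 bases was 50%, and the mean of the GC class medians for these members was -0.23.

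Tubulins and their partners were divided. Of 21 genes 2 fell and 2 rose (9.52% each, beside 6.00% lower and 0.270% higher over all genes). Tubg1 (gamma-tubulin, 3.31 and 3.37 in control, 1.79 and 1.99 in KO1) and Tubgcp2 (-1.02), which together nucleate microtubules, fell. Tuba1a (2.67 and 2.83 in control, 3.86 and 3.83 in KO1) and Tubb2b (1.90 and 1.92 in control, 2.76 and 2.82 in KO1), both subunits of the microtubule wall, rose. The list median was -0.04, and 0.33 after centring. Tubulin copies are also similar in sequence, and Tubgcp2 and Tuba1a overlap another annotated gene. Among 36 kinesins, which move along microtubules, Kif5b (-0.95) was called, with a median of -0.30.

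In DNA replication and repair, 0 of 27 licensing and origin genes were called, with a median of -0.31 and 8 lower and 0 higher at an unadjusted p under 0.05 in limma. Bard1, the partner of Brca1, fell from 7.54 and 7.67 to 6.02 and 6.21 (-1.49 ± 0.17, SE, limma adjusted p = 0.038), the 1 called of 22 genes of homologous recombination (4.55%, beside 6.00%). Brca1 itself had 7.40 and 7.23 in control and 7.44 and 7.65 in KO1, with a limma adjusted p of 0.429. Bard1 and Kif5b overlap another annotated gene.

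Genes of basic metabolism and protein production were close to or above the genome-wide median. Of 86 cytosolic ribosomal protein genes 59 had a lower mean and 2 fell (2.33%, beside 6.00% of all genes), Rps3a1 (-1.23) and Rpl41 (-0.85), with a median of -0.26 and 0.12 after centring. Of 75 mitochondrial ribosomal protein genes 6 were called (8%, beside 6.00%), all lower, with a median of -0.33. They include Mrpl4 (4.52 and 4.42 in control, 2.93 and 2.57 in KO1), Mrps35 (-1.29), Mrps36 (-1.23) and Mrpl17 (-1.06). Of 77 oxidative phosphorylation genes Atp5s (-1.08) and Ndufs3 (-1.07) were called (2.6%), of 39 proteasome genes Psmb8 (-1.86) and Psmc4 (-1.03) (5.13%), and of 65 translation factors Eif5a2 (-1.37) and Eif2b3 (-1.26) (3.08%). Psmb8 had 1.69 and 1.22 in control and -0.82 and 0.00 in KO1, where 0.00 is the commonest value of that library, so its fall rests on sparse signal. The list medians were -0.30, -0.26 and -0.21. Of 20 glycolysis genes and of 22 heat shock chaperones 0 were called, with medians of -0.24 and -0.06. In limma at an unadjusted p under 0.05, glycolysis had 5 lower and 1 higher and the chaperones 3 lower and 2 higher. Rps3a1, Mrpl17, Ndufs3, Psmb8 and Eif2b3 overlap another annotated gene.

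Large gene families held falls and rises at about the rate of all genes. Of 366 measured Zfp genes, most of them KRAB or C2H2 zinc finger factors, 16 fell (4.37%, beside 6.00%) and 2 rose (0.546%, beside 0.270%), with a median of -0.28 and 0.10 after centring. The largest of the falls was in Zfp318, with 6.73 and 7.15 in control and 5.17 and 5.24 in KO1, and Zfp654 (-1.61), Zfp365 (-1.57) and Zfp994 (-1.49) fell by similar amounts. Of 201 solute carriers 16 fell (7.96%), with a median of -0.41. They include Slc10a3 (-1.55), the amino acid carrier Slc36a4 (-1.52), the drug exporter Slc47a1 (-1.52) and the heme transporter Slc48a1 (2.77 and 2.97 in control, 1.25 and 1.48 in KO1). Of 49 ubiquitin-specific proteases and related genes Usp24 (-1.46), Usp6nl (-1.32) and Usp33 (-1.04) fell (6.12%), with a median of -0.41. Of 24 imprinted genes Igf2 (-2.40) and Ascl2, a trophoblast regulator (-1.02), fell (8.33%, beside 6.00%) and Mkrn3, a ring finger gene of the Prader-Willi region, rose by 1.31 (SE 0.25). Zfp318, Slc10a3, Slc48a1, Usp6nl, Usp33, Igf2 and Mkrn3 overlap another annotated gene.

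**Figure D5:**
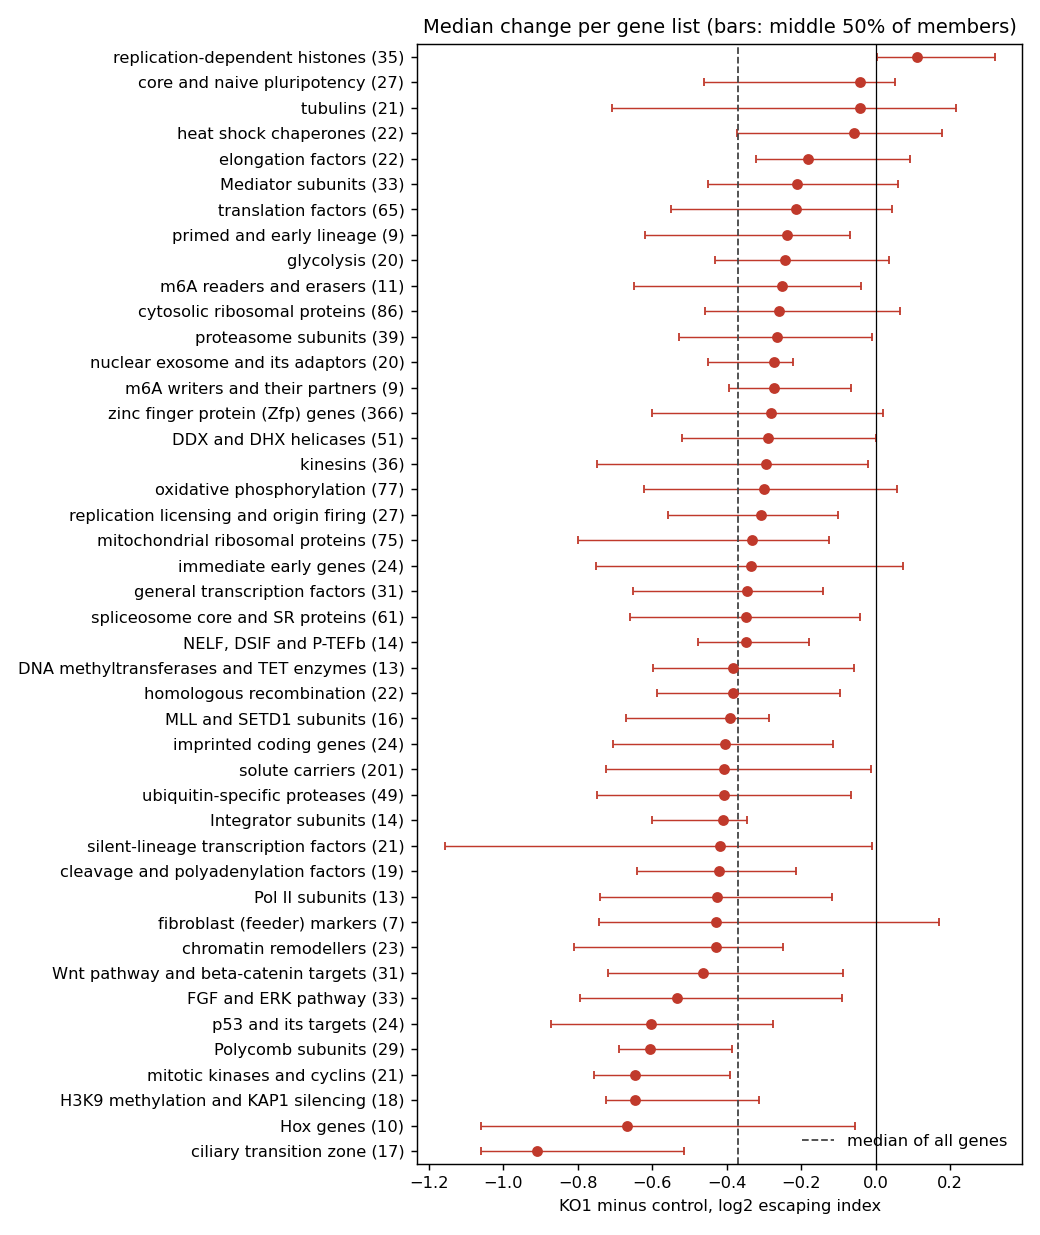
Median change in log2 escaping index from control to KO1 for each gene list with 7 or more measured members (number in brackets), with bars over the middle 50% of the members and a dashed line at the median of all genes, -0.37. The ciliary transition zone lies lowest at -0.91 and replication-dependent histones highest at 0.11. Centring moves all points right by 0.38 and the dashed line with them.

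The other knockout is given beside KO1 because it was measured against the same controls, so that the 2 comparisons are not independent. The median index in KO2 was 4.24 and 4.23, below both KO1 libraries. In the direct comparison of KO1 with KO2 limma called 0 genes, with a smallest adjusted p of 0.125, while at an unadjusted p under 0.05 KO1 was higher in 2205 genes and lower in 459. The median of KO1 minus KO2 over genes was 0.20. The values of single named genes were close for Dgkz (-2.34 in KO1 and -2.22 in KO2), Igf2 (-2.40 and -2.41) and Uxs1 (-1.95 and -1.98). They were far apart for Churc1 (-2.02 and -0.37), whose index in KO1 minus KO2 had a limma adjusted p of 0.125.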

How the data were processed

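mNET-seq libraries of mouse embryonic stem cells were grouped by their labels into control, KO1 and KO2, with 2 each. Micrococcal nuclease digestion of chromatin preceded immunoprecipitation of Pol II and sequencing of the short RNA, per the labels' protocols. CASAVA, Trimmomatic 0.38, HISAT2 2.1.0, featureCounts and mm10 are named in the submitters' processing notes. The authors deposited an escaping index per transcript as log2 values. In each library an offset of 0.5 times the smallest linear value had apparently been added, judged from the values. The sources used here give neither its windows and strand nor the depth.

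Of 68473 deposited transcripts, 68397 were matched to GENCODE mouse release 21 and 76 were not. The coding transcript of longest genomic span was kept per gene (12974 genes). Tests across genes used limma 3.58.1 under R 4.3.3 (all 6 libraries in 3 groups, a variance trend, contrast KO1 minus control, two-sided), with Benjamini-Hochberg adjustment and calls at an adjusted p under 0.05. Single values per library were compared with exact permutation tests. Summaries used Python 3.11.15 and pandas 2.3.3. On 5 simulated sets of 12974 genes with 200 changed, limma recovered 11.6% of genes changed by 1 and 85.2% of those changed by 2 log2 units, with 28 false among 512 calls. The simulated sets had changes of random direction and, unlike the data, no shift common to all genes. They therefore do not give the share of false calls among the genes called here.

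Named genes were, in each direction, the 15 calls of smallest p with both KO1 libraries on one side of both controls and no library at its floor or commonest value, then Mettl3 and, per list, up to 4 called members by p or 2 others. Further list members named without a call and the examples of alternative transcripts were chosen after their values were seen. Some called list members are not reported here. The members and the 45 gene lists were chosen with earlier results of these data known. The classes by GC content were added after the data were seen. GC was taken from GENCODE transcript sequences and promoters from RefSeq (10097 genes matched). Alternatives covered scaling, offset, the transcript used, overlapping genes, the libraries in the fit, a replicate block and each library left out.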

Additional observations from a re-analysis of the deposited data

Results flagged for a closer look

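Replication-dependent histone genes lay on opposite sides of control in the 2 knockouts. Their median index was 0.23 and 0.10 in control, 0.27 and 0.34 in KO1, and -0.49 and -0.36 in KO2, so that both KO1 libraries were above and both KO2 libraries below both controls. The difference between the knockouts was not tested for the list as a whole.

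In 5 of the 15 named rises, both libraries of KO1 lay above and both of KO2 below both controls. The named rises were chosen with both KO1 libraries above both controls, which held for 8.56% of all genes. KO2 lay lower over all genes, with a median change of -0.58. The share of all genes split in this way was not counted. The changes were 1.55 in KO1 and -0.61 in KO2 for Fcgr3, 1.14 and -0.27 for Trh, 1.19 and -0.35 for Zfp951, 1.25 and -0.32 for L1td1, and 1.53 and -0.60 for Loxl2. All are taken against the same controls. In the direct test of KO1 against KO2, limma gave an adjusted p of at least 0.125 for each of the 12974 genes.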

How the results depend on the processing

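Read depth is unknown and 2 libraries a group limit the precision. Of the 813 calls in limma, 0 were left after centring or quantile normalization, with KO1 and control libraries alone, with the replicate block, and without any single library (0 to 0 over the 6 fits). The smallest adjusted p was then 0.101, 0.0986, 0.0899, 0.0773 and 0.0857 to 0.148, and at an unadjusted p under 0.05 the replicate block gave 3656 lower and 319 higher genes. Without genes that overlap another, 416 of 5827 genes were called (395 lower), of which 387 were among the 813. The other settings gave 663 to 913 calls. The same replicate numbers do not pair these libraries: their deviations correlated across genes at 0.002, -0.009 and 0.008.

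The median change over genes was 0 after centring and 0 after quantile normalization, by construction, -0.36 with the longest spliced transcript and -0.31 with the mean over coding transcripts. Of 51 medians of lists and length classes, 27 changed sign with centring and 26 with quantile normalization. The GC contrast was -0.27 with the mean over transcripts and -0.42 without overlapping genes. The change of Mettl3 was 0.23 after centring, 0.21 after quantile normalization and 0.034 with the mean over transcripts. With the longest spliced transcript Furin was at 0.66, Klhl13 at -0.38 and Plec at -0.56, which is another transcript of each gene. Of the 31 named genes, 10 were no longer called with the mean over transcripts, and the 13 without overlap kept direction and side of the threshold.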

Other observations

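Some lists had a median change per gene near 0 in KO1 and a lower one in KO2, both taken against the same 2 control libraries. The 22 heat shock chaperone genes, which fold and protect proteins, had a median change of -0.06 in KO1 and -0.74 in KO2. The 21 tubulin genes had -0.04 and -0.75, and the 27 pluripotency genes -0.04 and -0.37. The median index of the pluripotency list, however, was 3.85 and 3.89 in the KO1 libraries and 3.85 and 4.04 in the KO2 libraries. For the 18 genes of H3K9 methylation and KAP1 silencing the order was the other way, with -0.65 in KO1 and -0.41 in KO2. Over all genes the medians were -0.37 and -0.58. The X chromosome had -0.27 in KO1 and -0.61 in KO2. These differences between lists were not tested.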
